A study of Rattus norvegicus with 6 samples.

Results

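The SLC25 family of mitochondrial solute carriers was followed in the livers of rats fed 6 diets. Its members were taken as probe sets with exactly 1 annotated gene symbol of the form Slc25a and a number, and a gene with more than 1 of them was read from its brightest, by the mean over the arrays. The rule found 42 probe sets and 37 genes among 29214 probe sets and 14506 named genes, and 36 of the 37 passed the filter on low values described below. The animals were adult male Wistar rats, 5 per diet, and the liver RNA of the 5 rats was combined and hybridised to 1 array, so that 6 arrays stand for 30 rats. Diets with a normal (NP) or a high (HP) protein level were each given on a low fat background (arrays NP and HP), with high sucrose and low fat (NP-HS and HP-HS), or with high sucrose and high fat (NP-HS-HF and HP-HS-HF). All rats had first spent 10 days on the normal protein diet, ate their own diet for 5 weeks and were killed 2 h after a measured meal of 87.6 kJ, in the fed state. The labels' source fields speak of mice, while rat is the organism named and the animal of the husbandry text.

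SLC25 proteins are small membrane proteins, most of them in the inner mitochondrial membrane, that swap or move metabolites between the cytosol and the matrix. In liver they export citrate for fat synthesis, bring in phosphate and ADP for ATP production, carry the ornithine and citrulline of the urea cycle, pass glutamate and dicarboxylates to matrix enzymes, and take up acylcarnitines and cofactors. Several family members have substrates that are still unsettled.

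Values are log2 expression, so that a difference of 1 is a change of 2-fold, and they are compared for 1 gene across arrays and never between genes. Array medians lay within 0.033 of each other, and the pairwise correlations of the arrays were between 0.9949 and 0.9964. All 7 hepatocyte markers, among them albumin (Alb) and transferrin (Tf), were measured, and their mean was between 13.15 and 13.22 on every array. Markers of adipose tissue, skeletal muscle and pancreas had list means between 5.23 and 6.12, with Ucp1, the brown fat uncoupling protein, below the filter. The list of 8 macrophage markers had array means from 8.24 to 8.38 with normal protein and from 8.42 to 8.64 with high protein. All 8 had fitted protein differences above 0, between 0.15 and 0.35, where 49.4% of all probe sets were above 0. Of the 8, 0 passed the adjusted test (lowest adjusted p = 0.287). An unadjusted p under 0.05 was reached by 6, beside 8.71% of all probe sets. The 4 endothelial markers measured had means from 8.75 to 8.87 against 8.88 to 8.9, and the 4 bile duct markers from 5.9 to 6.08 against 6.1 to 6.2. The 6 stellate and fibroblast markers had means from 7.72 to 7.92 against 7.82 to 7.94. Of these, 1 (Rgs5) was higher at an unadjusted p under 0.05 for protein, for fat and for sucrose with fat. Of 3 tested adipose markers, 1 (Fabp4) was higher at that threshold for protein, for sucrose and for sucrose with fat. In both lists 0 were lower. Of all probe sets, 8.71%, 3.02%, 4.95% and 5.18% reached it for protein, sucrose, fat and sucrose with fat. The part of these lists in the differences below was not tested. In a whole liver, fewer cells of a type and less RNA per cell cannot be told apart. The number of arrays limits the precision, since no diet had a second pool.

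The first comparison asks how the dietary protein level bears on the carriers. The oxodicarboxylate carrier gene Slc25a21, the glutamate carrier gene Slc25a22 and the ATP-Mg carrier gene Slc25a25 were higher with high protein on all 3 backgrounds, with fitted differences of 0.78, 0.48 and 0.88, which are 1.72-fold, 1.4-fold and 1.84-fold. The protein effect is the mean of 3 differences between arrays. Its error combines how the difference varied between backgrounds with the spread between pools. In limma this error is also drawn towards a value shared by all probe sets. The SE is therefore not the spread of 1 gene alone, and for Slc25a25 it was 0.177, against 0.295 in an ordinary t. Of the 36 members tested, 0 passed limma's test at an adjusted p under 0.05, where 0.044% of all probe sets tested passed. At an unadjusted p under 0.05 there were 7 of 36 members, 5 higher and 2 lower, beside 8.71% of all probe sets. The 5 higher were Slc25a15, Slc25a21, Slc25a22, Slc25a25 and Slc25a34, and the 2 lower were Slc25a23 and Slc25a47. With a trend of variance on expression in the same test, Slc25a21 (adjusted p = 0.0376) and Slc25a22 (adjusted p = 0.0468) passed and no other member did, and that setting called 51 of all 20450 probe sets against 9 without the trend.

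Across the family the differences were small. Above 0 were 22 of the 36 members (61.1%), and 14 were below, where 49.4% of all probe sets were above 0. The median protein effect of the members was 0.049, against -0.001 for all probe sets tested. It was 0.013 without the NP or the HP array and 0.025 without the NP-HS or the HP-HS array. All 3 high protein arrays lay above all 3 normal protein arrays for 9 members, where 7.35% of all probe sets did so, and below them for 1 member, where 7.58% did. Those 9 were Slc25a1, Slc25a3, Slc25a10, Slc25a15, Slc25a21, Slc25a22, Slc25a25, Slc25a34 and Slc25a39, and the 1 below was Slc25a23. For Slc25a1, Slc25a3, Slc25a10 and Slc25a39 the fitted differences were only 0.05 to 0.07, so that the separation of the arrays was narrow. The difference had 1 sign on all 3 backgrounds in 19 of 36 members (52.8%), 14 higher and 5 lower, beside 29.5% of all probe sets. Here and in every such share, all probe sets include ones with no gene symbol, as 15633 of 29214 are in the annotation. The share among named genes alone was not taken.

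**Figure D1:**
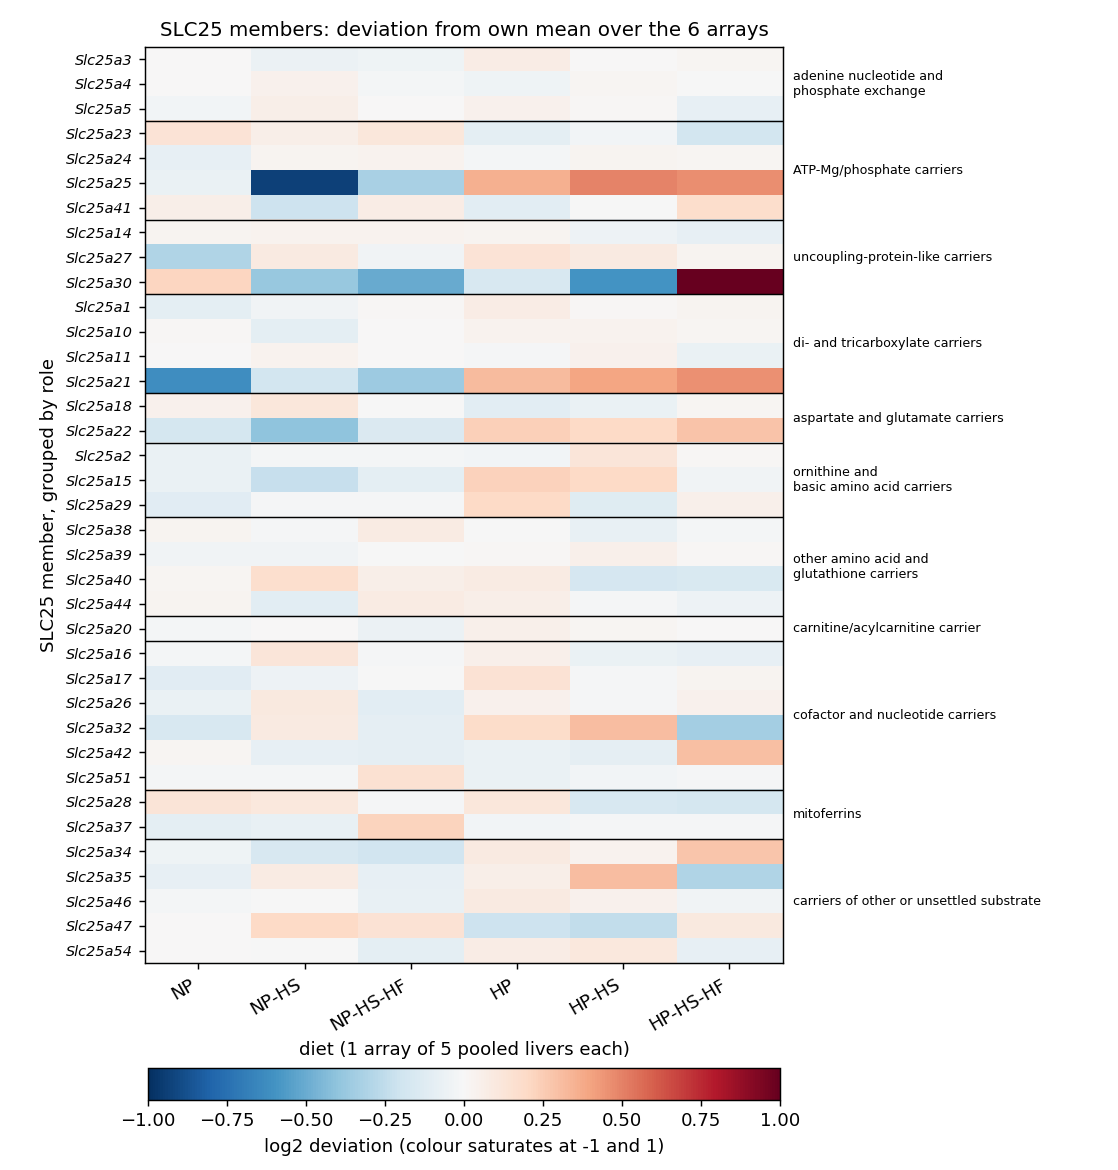
Log2 deviation of each of the 37 SLC25 members (rows, grouped by role) from its own mean over the 6 arrays (columns, 1 array of 5 pooled livers per diet); red is above and blue below the mean, and the colour saturates at 1. Slc25a25, Slc25a21 and Slc25a22 are below their mean on the 3 normal protein arrays and above it on the 3 high protein arrays, and Slc25a30 is highest on the HP-HS-HF array.

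**Figure D2:**
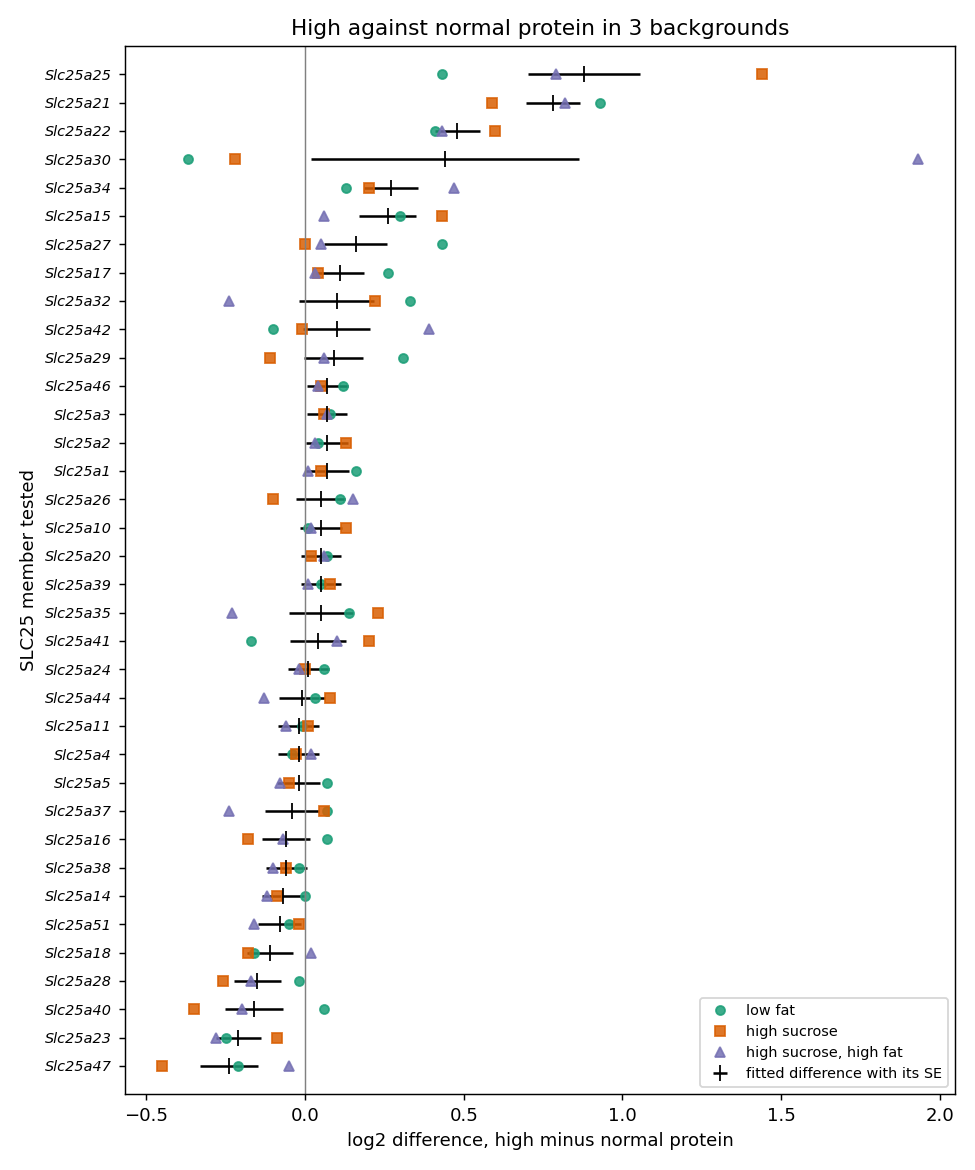
Log2 difference of high minus normal protein for the 36 tested members, sorted by the fitted difference, with 1 coloured point for each background and a black mark with a bar for the fitted difference and its SE from limma. Slc25a21 has points at 0.93, 0.59 and 0.82 and Slc25a22 at 0.41, 0.6 and 0.43, whereas the points of Slc25a30 lie at -0.37, -0.22 and 1.93.

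Slc25a21 (probe set 10890091) encodes the oxodicarboxylate carrier, which brings oxoadipate, an intermediate of lysine and tryptophan breakdown, into the matrix in exchange for oxoglutarate. Its level was 6.35 on NP, 6.79 on NP-HS and 6.61 on NP-HS-HF, and 7.29 on HP, 7.37 on HP-HS and 7.43 on HP-HS-HF. The high protein arrays differed among themselves by less than the normal protein arrays did, and the groups did not overlap. The differences were 0.93 on low fat, 0.59 with high sucrose and 0.82 with high sucrose and high fat, and the fit gave 0.78 ± 0.0852 SE (3 differences, adjusted p = 0.0756), which ranked 18 of 20450 by p. RefSeq annotates 1 pseudogene copy of Slc25a21, and whether the probes also read it was not tested.

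The mitochondrial glutamate carrier gene Slc25a22 (probe set 10726824), whose protein moves glutamate with a proton into the matrix, was at 9.98 on NP, 9.75 on NP-HS and 10.01 on NP-HS-HF. With high protein it was at 10.39, 10.35 and 10.44 in the same order of backgrounds. The 3 high protein values lay within 0.09 of each other and above every normal protein value. The differences of 0.41, 0.6 and 0.43 gave a fitted 0.48 ± 0.0718 SE (adjusted p = 0.124). The other glutamate carrier gene, Slc25a18, lay between 5.85 and 6.07, with the filter at 5.14. It was lower on 2 of 3 backgrounds, at -0.16, -0.18 and 0.02. The fit gave -0.11 ± 0.0728 SE (adjusted p = 0.771). The fitted values of the pair thus differed in sign, but that of Slc25a18 was not distinguished from 0.

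Slc25a15 (probe set 10789143) encodes the ornithine and citrulline exchanger, the carrier of the urea cycle. Its values were 11.65, 11.49 and 11.62 with normal protein and 11.95, 11.92 and 11.68 with high protein, on low fat, high sucrose and high sucrose with high fat. The HP-HS-HF value stood only just above the highest normal protein value. The difference was thus 0.3 on low fat and 0.43 with high sucrose but 0.06 with high sucrose and high fat. The fit gave 0.26 ± 0.0888 SE (adjusted p = 0.472). Without NP, HP, NP-HS or HP-HS, Slc25a15 was no longer at an unadjusted p under 0.05. The second ornithine carrier gene, Slc25a2, had differences of 0.04, 0.13 and 0.03, and Slc25a29, for basic amino acids, had 0.31, -0.11 and 0.06. RefSeq annotates 1 pseudogene copy of Slc25a15.

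Among the carriers that exchange ATP-Mg for phosphate and so set the adenine nucleotide pool of the matrix, 2 members went opposite ways with protein. Slc25a25 (probe set 10844339), the calcium-regulated SCaMC-2, was at 9.55 on NP, 8.68 on NP-HS and 9.29 on NP-HS-HF, and at 9.97, 10.11 and 10.08 on HP, HP-HS and HP-HS-HF. The high protein arrays sat close together, while the normal protein arrays spread over 0.87 with NP-HS the lowest. The differences were 0.43, 1.44 and 0.79, the fit gave 0.88 ± 0.177 SE (adjusted p = 0.219), and it was 0.61 without the NP-HS or without the HP-HS array.

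Slc25a23 (probe set 10930790), which encodes SCaMC-3, was lower with high protein. It was at 11.33, 11.25 and 11.3 with normal protein and at 11.09, 11.16 and 11.01 with high protein, with differences of -0.25, -0.09 and -0.28. The fitted difference was -0.21 ± 0.0712 SE (adjusted p = 0.481). Without NP, HP, NP-HS-HF or HP-HS-HF, Slc25a23 was no longer at an unadjusted p under 0.05. A second probe set of the gene (10930779) was at 10.26, 10.37 and 10.41 with normal protein and 10.07, 9.99 and 9.83 with high protein, with a fitted -0.39, so both probe sets had the lower values with high protein. Slc25a23 is outside the rule for genes to be described in full and was added after its values were seen. The remaining ATP-Mg carrier genes, Slc25a24 and Slc25a41, were at a fitted 0.01 and 0.04, and the arrays of both protein levels overlapped.

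**Figure D3:**
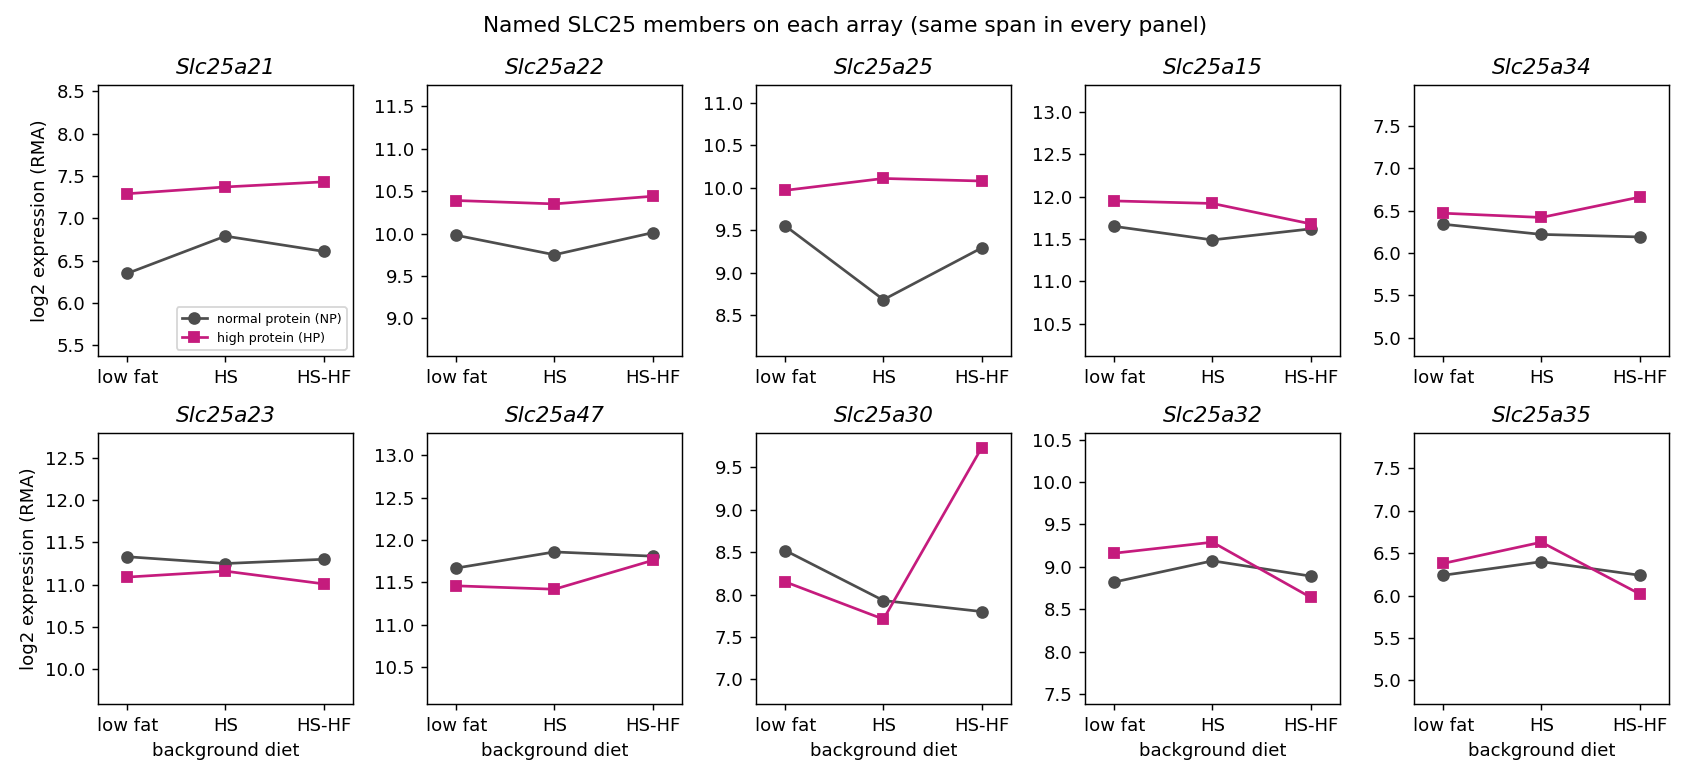
Log2 expression of 10 named members on each array against the background diet (HS, high sucrose; HS-HF, high sucrose and high fat), with normal protein in grey circles and high protein in pink squares; each point is 1 array and every panel has the same span. The pink points of Slc25a21, Slc25a22 and Slc25a25 lie above the grey ones throughout, and the HP-HS-HF point of Slc25a30, at 9.73, is far above its other 5, which lie between 7.71 and 8.52.

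The regions just before the start of the 3 genes with the largest protein t are shown because these members were higher together with high protein. Each is 250 bases long, from RefSeq on GRCr8, printed 5′ to 3′ on the gene's strand and ending at the base before the annotated start. Capitals mark matches to 5 short motifs searched on both strands: the cAMP response element CRE (TGACGTCA), its core (TGACG, contained in the full element), the E-box (CACGTG), the CCAAT box (CCAAT) and the GC box (GGGCGG). Slc25a25 lies on the minus strand at chr3:36116582-36116831, Slc25a21 on the minus strand at chr6:80437721-80437970 and Slc25a22 on the minus strand at chr1:205965878-205966127.
Slc25a25: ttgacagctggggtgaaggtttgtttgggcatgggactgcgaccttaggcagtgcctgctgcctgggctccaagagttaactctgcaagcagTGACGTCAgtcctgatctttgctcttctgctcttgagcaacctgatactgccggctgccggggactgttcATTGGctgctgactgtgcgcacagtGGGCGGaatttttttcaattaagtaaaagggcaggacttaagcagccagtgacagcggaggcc
Slc25a21: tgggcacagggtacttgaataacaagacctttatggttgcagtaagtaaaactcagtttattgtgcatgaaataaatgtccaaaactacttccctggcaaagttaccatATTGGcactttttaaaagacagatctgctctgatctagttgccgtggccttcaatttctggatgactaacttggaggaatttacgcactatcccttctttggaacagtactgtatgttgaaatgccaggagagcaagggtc
Slc25a22: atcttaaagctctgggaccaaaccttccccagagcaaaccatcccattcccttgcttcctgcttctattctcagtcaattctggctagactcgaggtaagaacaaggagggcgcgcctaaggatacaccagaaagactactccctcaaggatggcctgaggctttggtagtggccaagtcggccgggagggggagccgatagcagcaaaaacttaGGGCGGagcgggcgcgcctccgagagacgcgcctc

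The Slc25a25 region holds a full CRE that begins 158 bases before the start, a CCAAT box on the other strand at 88 bases and a GC box at 63 bases. The letters of the CRE, the element that the cAMP-responsive factor CREB binds, were found in 1.59% of 33469 RefSeq regions of this length and in 1 of the 32 members that had a region. Slc25a21 held a CCAAT box on the other strand at 141 bases and Slc25a22 a GC box at 35 bases. These are common letters, with the CCAAT box in 34% and the GC box in 30.5% of all regions and in 18 and 20 of the 32 members. The CRE core was in 18.2% of all regions and in 7 members, and the E-box in 5.59% and in 2 members, Slc25a2 and Slc25a51. A match describes the letters only, and no motif of the 5 was in all 3 regions. The windows of Slc25a26, Slc25a30, Slc25a32, Slc25a37 and Slc25a46 were not analysed here.

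Slc25a34 (probe set 10881140), a carrier gene with no settled substrate, was at 6.34, 6.22 and 6.19 with normal protein and at 6.47, 6.42 and 6.66 with high protein. The high protein arrays were all above the others, and the difference was largest on high sucrose with high fat, at 0.47, against 0.13 and 0.2. The fit gave 0.27 ± 0.0853 SE (adjusted p = 0.457), and 0.17 (adjusted p = 0.787) when either HS-HF array was left out, where Slc25a34 was no longer at an unadjusted p under 0.05. Slc25a47 (probe set 10886786), a carrier gene known for its expression in liver, was at 11.67, 11.86 and 11.81 with normal protein and at 11.46, 11.42 and 11.76 with high protein. Its groups overlapped, because the HP-HS-HF array reached the level of the normal protein arrays. The fit gave -0.24 ± 0.0904 SE (adjusted p = 0.53). Without NP, HP, NP-HS or HP-HS, Slc25a47 was no longer at an unadjusted p under 0.05.

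Read on each background separately, with 1 array per diet and no test, 1.5-fold differences between protein levels were few and all upward. On low fat there was 1 of 36 members, Slc25a21, beside 1.38% of all probe sets. With high sucrose there were 3, Slc25a21 (1.5-fold), Slc25a22 (1.52-fold) and Slc25a25 (2.71-fold), beside 1.39%. With high sucrose and high fat there were 3, Slc25a21 (1.77-fold), Slc25a25 (1.72-fold) and Slc25a30 (3.8-fold), beside 1.5%.

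The second set of comparisons asks how sucrose and fat bear on the carriers at equal protein. No member passed limma's test for sucrose, for fat added to sucrose or for both together, where 0% of all probe sets passed in each. At an unadjusted p under 0.05 there was 1 of 36 members for sucrose (Slc25a21, beside 3.02% of all probe sets), 2 for fat (Slc25a32 and Slc25a35, beside 4.95%) and 0 for sucrose with fat (beside 5.18%). The members' median effects were -0.007, -0.006 and -0.012, next to 0, -0.003 and -0.003 for all probe sets. These 3 effects share arrays, since fat added to sucrose and sucrose against low fat both use the high sucrose arrays.

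With sucrose and no added fat, Slc25a25 had its lowest value at normal protein. From NP to NP-HS the difference was -0.87 (1.83-fold lower), and from HP to HP-HS it was 0.14. The fitted sucrose effect of -0.37 ± 0.217 SE (adjusted p = 1) became 0.05 without the NP-HS array. Adding fat at normal protein was accompanied by a Slc25a25 difference of 0.62 (1.54-fold higher), and at high protein of -0.03. An interaction of protein and background leaves no residual degrees of freedom, so the difference between the protein levels was not tested.

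For Slc25a21 the sucrose difference was 0.43 at normal and 0.09 at high protein, with a fitted 0.26 ± 0.104 SE (adjusted p = 1). At 1.5-fold or more, sucrose at normal protein had 2 members, Slc25a25 and Slc25a30, both lower, beside 0.866% of all probe sets, and with arrays centred on their medians it had 1, Slc25a25. At high protein it had 0, beside 0.89%. The mitoferrin-2 gene Slc25a28 (probe set 10715359), whose protein brings iron into mitochondria, was at 8.63, 8.6 and 8.49 with normal protein and at 8.61, 8.34 and 8.32 with high protein. Its values were lowest on the HP-HS and HP-HS-HF arrays, with a fitted sucrose effect of -0.15 ± 0.0913 SE and a sucrose and fat effect of -0.22 (adjusted p = 0.953). Sucrose alone gave -0.03 at normal and -0.27 at high protein for Slc25a28, and without 1 array the fitted effects were between -0.25 and -0.05 and between -0.31 and -0.12.

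Slc25a30 (probe set 10785326) encodes a carrier related to the uncoupling proteins and first described in kidney. It had the widest range of all members, 2.02. It was at 8.52 on NP, 7.93 on NP-HS and 7.8 on NP-HS-HF, and at 8.15 on HP, 7.71 on HP-HS and 9.73 on HP-HS-HF. A single array, HP-HS-HF, stood above all others. Fat added to sucrose thus gave 2.02 at high protein (4.04-fold) and -0.14 at normal protein, and high sucrose with high fat against low fat gave 1.58 (2.98-fold) and -0.72 (1.65-fold lower). The fitted fat effect of 0.94 ± 0.516 SE (adjusted p = 0.999) described neither protein level, and was -0.17 without the HP-HS-HF array and 2.05 without the NP-HS-HF array. With no second pool for this diet, the diet and this pool of 5 livers cannot be told apart for Slc25a30.

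Other members also had their extreme on the HP-HS-HF array. Slc25a42, which encodes a carrier of coenzyme A, was at 9.97 there and between 9.58 and 9.69 on the other 5 arrays. Slc25a32 (probe set 10903482), for a carrier of FAD and folate, was at 8.82, 9.07 and 8.89 with normal protein and at 9.16, 9.29 and 8.64 with high protein. It was lowest on HP-HS-HF and highest on HP-HS. The fitted fat effect of Slc25a32 was -0.42 ± 0.144 SE (adjusted p = 0.952), made of -0.18 at normal and -0.65 at high protein.

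Slc25a35 (probe set 10734822), whose substrate is unsettled, followed a similar course. It was at 6.24, 6.4 and 6.24 with normal protein and at 6.38, 6.63 and 6.02 with high protein. Its fat effect was -0.38 ± 0.124 SE (adjusted p = 0.934), with -0.15 at normal and -0.61 at high protein. In both Slc25a32 and Slc25a35 the direction with fat was the same at both protein levels, and the size at high protein was the larger. The macrophage markers had lower means with fat too, at 8.38 on NP-HS and 8.24 on NP-HS-HF, and at 8.64 on HP-HS and 8.42 on HP-HS-HF. Their median fat effect was -0.19, with 3 of 8 (Marco, Clec4f and Cd5l) lower at an unadjusted p under 0.05, 0 higher and 0 past the adjusted test. Their part in the fat differences was not tested. Without 1 array, the fat effect was between -0.68 and -0.16 for Slc25a32 and between -0.59 and -0.18 for Slc25a35.

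Counted at 1.5-fold or more, fat added to sucrose had 1 member at normal protein, Slc25a25, beside 0.934% of all probe sets. At high protein it had 3, Slc25a30 higher and Slc25a32 and Slc25a35 lower, beside 1.27%. High sucrose with high fat against low fat had 1 member at each protein level, Slc25a30, lower at normal and higher at high protein, beside 1.16% and 1.19%. Slc25a41 (probe set 10930792), the ATP-Mg carrier that lacks the calcium-binding part, was at 5.81, 5.55 and 5.83 with normal protein and 5.65, 5.75 and 5.93 with high protein. Its fitted fat effect was 0.23 (adjusted p = 0.999), with 0.28 and 0.17 at normal and high protein. The mitoferrin-1 gene Slc25a37 (probe set 10784896) was at 8.34, 8.36 and 8.66 with normal protein and at 8.41, 8.42 and 8.42 with high protein, so that NP-HS-HF was its 1 high array. The 4 red cell markers measured, Hbb, Hbb-b1, Alas2 and Slc4a1, had a list mean of 8.83 on that array and between 8.68 and 8.96 over all arrays.

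Slc25a1, Slc25a3, Slc25a4, Slc25a5 and Slc25a20, for citrate, phosphate, ADP and ATP, and acylcarnitine, had ranges of at most 0.16 over the 6 arrays. The ATP-Mg carriers described above are not among them, and a second Slc25a1 probe set (10750042) ranged over 0.2. The phosphate carrier gene Slc25a3 ranged over 0.13, and the ADP/ATP carrier genes Slc25a4 and Slc25a5 over 0.08 and 0.14. Protein differences of these 3 were between -0.02 and 0.07 in the fit. Apart from Slc25a21 (0.78), the di- and tricarboxylate carriers had small differences. The citrate exporter gene Slc25a1 had a protein effect of 0.07 ± 0.0686 SE, the dicarboxylate carrier gene Slc25a10 of 0.05 ± 0.0669 SE and the oxoglutarate and malate carrier gene Slc25a11 of -0.02 ± 0.0645 SE. Slc25a20, which encodes the carnitine and acylcarnitine carrier that feeds fatty acid oxidation, ranged over 0.12 and had fitted effects between -0.05 and 0.05 for all 4 comparisons.

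The remaining members had ranges between 0.08 and 0.43. Slc25a38, for glycine, Slc25a39, for glutathione, Slc25a44, for branched-chain amino acids, and Slc25a40 had ranges of 0.15, 0.08, 0.17 and 0.35. Among cofactor carriers, Slc25a16 ranged over 0.2, the peroxisomal Slc25a17 over 0.26, the S-adenosylmethionine carrier gene Slc25a26 over 0.2 and the NAD carrier gene Slc25a51 over 0.22. The uncoupling protein relatives Slc25a14 and Slc25a27 ranged over 0.12 and 0.43, with the NP array the lowest for Slc25a27, at 5.96 against 6.23 to 6.4 on the others. Slc25a46, of the outer membrane, ranged over 0.17. Slc25a54 did not pass the filter, with values from 4.29 to 4.49. The median range over the 6 arrays was 0.24 for the 36 members and 0.25 for all probe sets tested, and 6 of 36 members (16.7%) had a range of 1.5-fold or more, beside 6.47% of all probe sets.

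For 4 genes there was more than 1 probe set. Those of Slc25a51 had protein effects of -0.08, -0.07 and -0.1, and those of Slc25a1 of 0.07 and 0.01. The sign differed between probe sets for the sucrose and fat effect of Slc25a24, at 0.08 and -0.04, for that of Slc25a1, at 0.03 and -0.09, and for that of Slc25a51, at 0.11, -0.03 and 0. The sucrose effects of Slc25a51 also differed in sign, at 0.02, -0.05 and -0.03. The fat effect of Slc25a24 was 0 in the probe set used and -0.2 in the other. In the same order, the sucrose effect was 0 and -0.16 for Slc25a1, and 0 and 0.01 for Slc25a23. RefSeq annotates 9 pseudogene copies of Slc25a5, 8 of Slc25a39 and 2 of Slc25a3, which whole-transcript probes can share with the gene, and this was not tested. Family genes other than these 37 were not analysed here.

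The enzymes that work beside the carriers were read from 6 lists of partner genes, and 0 of the 38 tested partners passed limma's test for any of the 4 effects. The counts below are at an unadjusted p under 0.05 for protein, which 8.71% of all probe sets reached in either direction, so that 1 gene of a short list is close to that background. Lysine and tryptophan are broken down through oxoadipate, the substrate of the Slc25a21 carrier. Of 5 genes of this route, 2 were higher with high protein at an unadjusted p under 0.05 and 0 lower. Acmsd, which commits tryptophan carbon to this route, was at 7.73, 8.2 and 8.32 with normal protein and at 9.02, 9.16 and 8.96 with high protein, with a fitted 0.96 ± 0.123 SE (1.95-fold, adjusted p = 0.0916). Aass, the first enzyme of lysine breakdown, was at 0.23 ± 0.0705 SE (adjusted p = 0.428). Aadat, Dhtkd1 and Gcdh were at 0.03, 0.06 and 0.06.

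Among the 6 urea cycle genes, which the Slc25a15 carrier links across the membrane, 1 was higher at an unadjusted p under 0.05 and 0 lower. The argininosuccinate lyase Asl was at 10.91, 10.77 and 10.97 with normal protein and at 11.3, 11.35 and 11.46 with high protein (0.49 ± 0.0703 SE, adjusted p = 0.118). Its difference was similar on the 3 backgrounds, at 0.39, 0.58 and 0.49, unlike that of Slc25a15. The matrix enzymes Cps1 and Otc were at 0.04 and -0.09. Of the 4 malate-aspartate shuttle enzymes, the cytosolic aminotransferase Got1 was 1 of 4 at an unadjusted p under 0.05, with 11.17, 11.13 and 11.1 against 11.81, 12.02 and 11.64 (0.69 ± 0.0867 SE, adjusted p = 0.0916). Its mitochondrial partner Got2 was at -0.11.

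In citrate export and use 3 of 5 genes were lower and 0 higher at an unadjusted p under 0.05, beside the same 8.71%. These were the malic enzyme Me1 (-0.57 ± 0.0751 SE, adjusted p = 0.104), the acetyl-CoA carboxylase Acaca (-0.52 ± 0.0925 SE, adjusted p = 0.169) and the fatty acid synthase Fasn (-0.34 ± 0.0856 SE, adjusted p = 0.337), while Acly and Cs were at -0.15 and -0.05 and the citrate carrier gene Slc25a1 at 0.07. In the carnitine shuttle 3 of 4 were higher and 0 lower at that threshold, Cpt1a (0.22 ± 0.0673 SE, adjusted p = 0.439), Cpt1b (0.22 ± 0.0724 SE, adjusted p = 0.457) and Crat (0.27 ± 0.105 SE, adjusted p = 0.545), with Slc25a20 at 0.05. The carnitine acetyltransferase gene Crat was highest on the HP-HS-HF array, at 9.16 against 8.46 to 8.77 on the others. Of 14 tested carriers and channels outside the symbol rule, 1 was lower and 0 higher, the pyruvate carrier subunit Mpc2 (-0.2 ± 0.0797 SE, adjusted p = 0.553). For fat added to sucrose, the largest t in size in their lists were those of Crat (0.39) and Me1 (-0.26), and for sucrose with fat those of Sfxn1 (-0.29), a serine carrier of another family, and Acaca (-0.28). The uncoupling protein genes Ucp2 and Ucp3 were at 0.06 and 0.02, and the porin genes Vdac1, Vdac2 and Vdac3 at 0.09, 0.05 and 0.

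**Figure D4:**
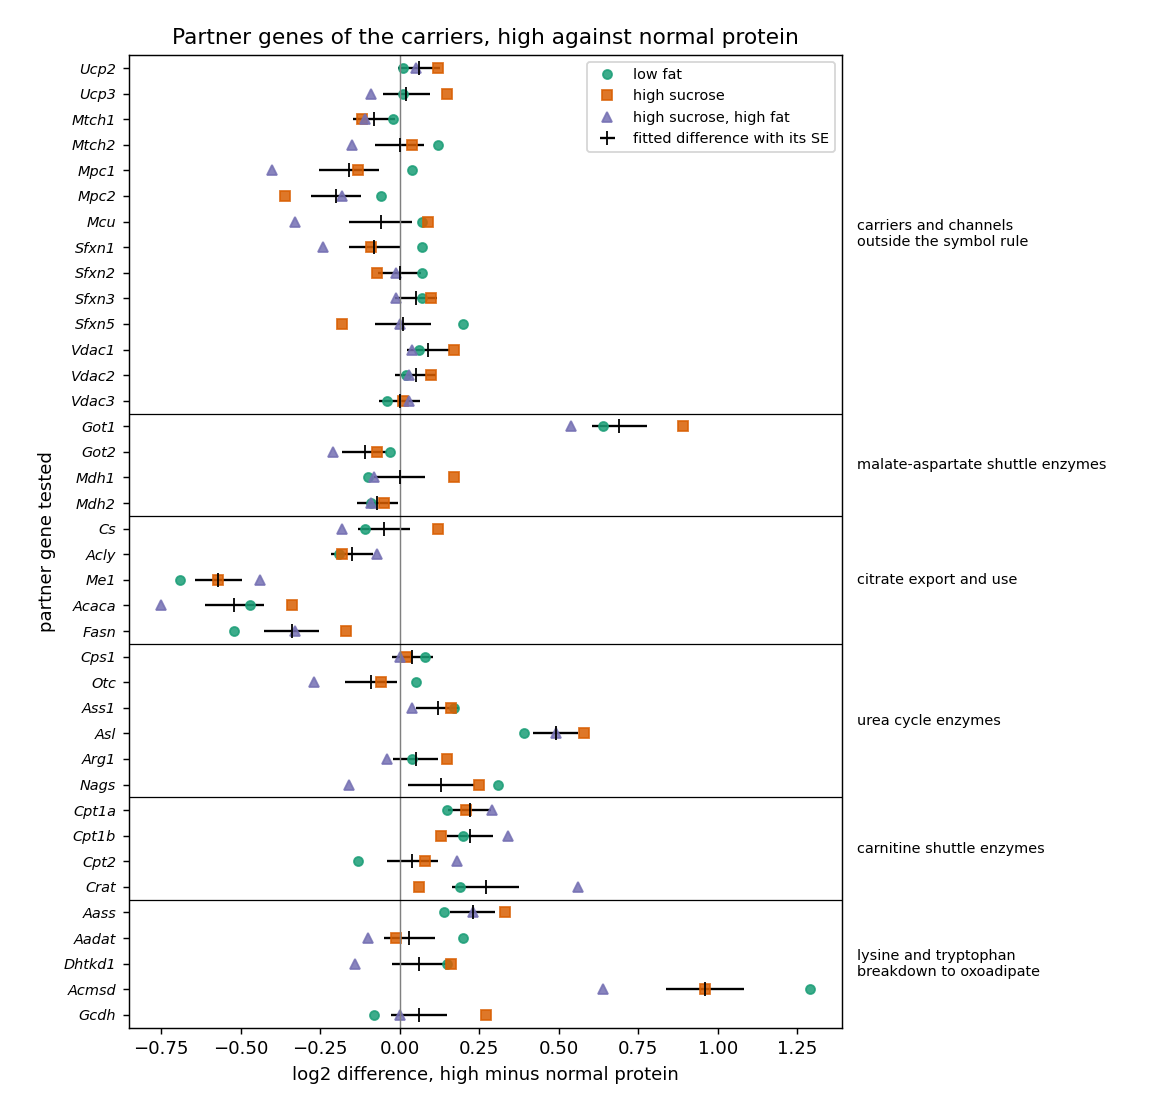
Log2 difference of high minus normal protein for the 38 tested partner genes in 6 lists, with 1 coloured point for each background and a black mark with a bar for the fitted difference and its SE from limma. Acmsd, Got1 and Asl have all 3 points above 0, Me1, Acaca and Fasn have all 3 below 0, and the porins and uncoupling proteins lie near 0.

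The named genes whose values followed 2 members most closely over the 6 arrays are given as a description, over 11420 other genes. For Slc25a30, the member with the widest range, they were Cyp26b1 (Pearson r = 0.993), Mmp17 (0.986), Rassf7 (0.986), Slc25a42 (0.984) and Hoxb7 (0.983), which all had their highest value on the HP-HS-HF array and ranges between 0.17 and 0.41. For Slc25a21, with the largest protein t, they were Rnf138 (0.999), Ythdc1 (0.995), Txndc17 (0.992), Btbd10 (0.986) and Spatc1 (0.986), with ranges between 0.19 and 0.47. Each r rests on 6 arrays and was picked as among the highest of 11420, and the 6 points share the arrays and their pools. How many genes reach such values by noise was not tested.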

How the data were processed

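Each of the 6 arrays held liver RNA pooled from 5 rats (1500 ng per rat), extracted with TRIzol, with an integrity number of at least 7.0 required, and 100 ng was labelled, per the labels' protocols. The deposited values are log2 expression per probe set, which the authors summarised with RMA, the robust multichip average. The tool is named in the submitters' processing notes, and its version and settings were not given in the sources used here. Genes were named from the platform annotation, and all 37 members matched RefSeq by Entrez number. Probe sets with a mean above the 30th percentile (log2 5.14), 20450 in all, were tested with limma 3.58.1 in R 4.3.3, with terms for protein level and background, leaving 2 residual degrees of freedom (eBayes prior of 4.37 degrees of freedom), and Benjamini-Hochberg adjustment over all of them at 0.05. The ± values are standard errors of that fit after moderation by eBayes. No label says that a diet had a second pool. The p-values therefore rest on how an effect varied between levels of the other factor, mixed with the spread between pools and arrays. They do not measure the spread between rats. Differences between 2 arrays were counted at 1.5-fold. Described in full were members at 1.5-fold or more in any difference and the 5 with the largest t for each effect; of partners, those at 1.5-fold and the largest t in a list were to be named, and others at an unadjusted p under 0.05 were added after their values were seen. The members, lists and motifs were chosen with earlier results of these data known. The fit was tested on simulated data. Alternatives covered the filter, scaling, moderation, arrays left out and the choice of probe set.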

Additional observations from a re-analysis of the deposited data

Results flagged for a closer look

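Differences of 1.5-fold or more at 1 level of the other factor, with the opposite sign at another, were found for Slc25a25 and Slc25a30. Each rests on 1 array per diet, and the difference between levels was not tested. For Slc25a30, high minus normal protein was 1.93 between the HS-HF arrays and -0.37 between the low fat arrays. Fat added to high sucrose gave 2.02 at high protein and -0.14 at normal protein, and high sucrose with high fat against low fat gave 1.58 and -0.72. All 3 contrasts use the HP-HS-HF array, so they are not separate results. For Slc25a25, high sucrose against low fat gave -0.87 at normal and 0.14 at high protein, and fat added to high sucrose gave 0.62 and -0.03. Both of these use the NP-HS array.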

How the results depend on the processing

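The count of probe sets called for protein, 9, was 3 with no filter, 16 with arrays centred on their medians, 51 with a variance trend and 0 with an ordinary t. It was 0 when NP and HP were left out together, 0 without NP-HS and HP-HS, and 48 without NP-HS-HF and HP-HS-HF. For protein, leaving out 1 array gave the same fit as leaving out both arrays of its background. The range of 0 to 48 when 1 array was left out is thus not a separate check. Members called for protein were 0 in all settings but the variance trend, which called 2. The 7 members at an unadjusted p under 0.05 became 3 with an ordinary t (Slc25a3, Slc25a21 and Slc25a22). They were 5 to 7 when 1 array was left out, a count added after the data were seen. Without NP or HP they were Slc25a21, Slc25a22, Slc25a25, Slc25a28, Slc25a34 and Slc25a40. Without NP-HS or HP-HS they were Slc25a21, Slc25a22, Slc25a23, Slc25a25 and Slc25a34. Without NP-HS-HF or HP-HS-HF they were Slc25a15, Slc25a21, Slc25a22, Slc25a25, Slc25a30, Slc25a32 and Slc25a47. Only Slc25a21, Slc25a22 and Slc25a25 were in each of these sets. For sucrose, 3 probe sets were called with only the arrays contrasted or without both arrays of high sucrose with high fat, and 0 to 3 when 1 array was left out. Leaving out 1 array gave 0 to 17 probe sets for fat and 0 to 12 for sucrose with fat, and 0 to 1 members for each. That member was Slc25a30 without NP-HS-HF (fat effect 2.05, adjusted p = 0.00839), where 1 array alone stands for the diet. Without the array named, 3 effects turned: sucrose for Slc25a25 to 0.05 (NP-HS), fat for Slc25a30 to -0.17 and sucrose with fat for Slc25a32 to 0.04 (both HP-HS-HF). Over the arrays left out in turn, the first ranged from -0.78 to 0.05, the second from -0.17 to 2.05 and the third from -0.48 to 0.04.

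At 1.3-fold, members differing between protein levels numbered 4 on low fat, 5 with high sucrose and 6 with high sucrose and high fat, and at 2-fold 0, 1 and 1. For sucrose they were 4 at 1.3-fold and 0 at 2-fold at normal protein, and 1 at 1.3-fold at high protein. At 1.5-fold with arrays centred on their medians, sucrose at normal protein had 1 (Slc25a25). Fat added to sucrose had 0 at normal and 1 at high protein at 2-fold. Sucrose with fat had 0 at 2-fold at normal protein and 2 at 1.3-fold at high protein. The background term compares the protein levels within each background, and the labels carry no replicate numbers to pair by. The members' median protein effect of 0.049 lay between 0.013 and 0.05 when 1 array was left out.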
